A study of Mus musculus with 12 samples.

Results

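The liver X receptors (LXRs) and 8 genes of sterol efflux, esterification and uptake that act beside them were followed in mouse liver. The genes were taken by symbol from the 3 deposited count tables: Nr1h3, Nr1h2, Abca1, Abcg1, Abcg5, Abcg8, Mylip, Lpcat3, Soat2 and Scarb1, 10 of the 50559 genes listed. The study sequenced liver RNA of C57BL/6N mice in 4 groups, each with 3 libraries that the labels call biological replicates, and the labels name no mutant allele in any group. NCD mice ate normal chow and HFD mice a high-fat diet with 60% of its energy as fat, both over 12 weeks. HFD+C1 and HFD+C2 mice ate the same high-fat diet and received compound C1 or C2 into the peritoneum at 5 mg/kg per day over the same 12 weeks. The series title describes C1 and C2 as CYP4A inhibitors, that is, inhibitors of fatty acid hydroxylases of the cytochrome P450 family. The labels do not give the structures, the sex or age of the mice, or whether NCD and HFD mice were injected with vehicle.

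LXRs are nuclear receptors that bind oxysterols and, together with a retinoid X receptor, switch on genes that move cholesterol out of cells and into bile. ABCA1 and ABCG1 hand cholesterol to high-density lipoprotein (HDL), ABCG5 and ABCG8 form one transporter that secretes sterols into bile, and MYLIP is a ubiquitin ligase that limits the uptake of lipoproteins. LPCAT3 places polyunsaturated fatty acids in membrane phospholipids, SOAT2 esterifies cholesterol in hepatocytes, and SCARB1 takes up cholesterol from HDL.

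Levels are given in CPM, the deposited counts brought to one common library total: each library was divided by its reads in genes, adjusted by TMM factors over the 12 libraries. Reads in genes ranged from 4281210 in NCD 2 to 32124248 in HFD 1, so that 3 counts, taken as the floor, stood for 0.633 and 0.0997 CPM. All 10 genes had more counts than this in all 12 libraries. 2 libraries stood apart. In NCD 1, 58.15% of reads were not assigned to a gene, and in HFD+C2 1 47.09%, against 27.32% to 40.7% in the other 10 libraries. The share also lay apart by diet: it was 58.15%, 35.67% and 40.7% in NCD and 31.86% to 32.95% in HFD, and reads outside annotated features were 8.584% to 23.22% and 4.915% to 6.845%. The part of this in the diet comparison was not tested. Their mean correlation of log2 CPM with the rest of their group was 0.9323 and 0.9536, the lowest within each group, although NCD 2 at 0.9498 was also below HFD+C2 1. Summed CPM of 5 hepatocyte markers (Alb, Ttr, Serpina1a, Cyp2e1, Apob) ran from 21360 to 62660 on chow, with NCD 1 lowest, and from 79280 to 95440 on the high-fat diet. With C1 they ran from 91650 to 97330 and with C2 from 76710 to 135600. The defining markers of liver were thus present in every library, and their sum, most of it Alb, was higher in every HFD library than in every NCD library. Alb, Cyp2e1 and Apob lay apart in this way, while Ttr and Serpina1a overlapped between NCD and HFD. In bulk tissue, fewer cells of a type and less RNA per cell cannot be told apart.

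The first comparison asked what the high-fat diet did to these genes. Abcg5, a subunit of the biliary sterol transporter, and Mylip, the ubiquitin ligase, rose 2.58-fold and 2.62-fold in HFD livers. The other 8 genes did not pass the test of edgeR's quasi-likelihood fit (adjusted p under 0.05 over all 13864 genes tested), and 0 genes of the 10 fell. Of all genes tested, 6.03% were called and 2.59% were called higher. The log2 change was above 0 in 8 of 10 genes, with a median of 0.90, where the median over all genes tested was -0.0216. Without NCD 1 the median of the 10 genes was 0.569, with 10 of 10 above 0; with any other single library left out it was 0.855 to 1.11, with 8 of 10 above 0. In 7 of 10 genes each HFD library lay above each NCD library, against 18.4% of all genes. With CPM set by library size alone, a scaling added after the data were seen, this held for 5 of 10 genes, against 11.9% of all genes: Soat2 and Scarb1 then overlapped. Both calls were lost when any one HFD library was left out, and 6 genes were called without NCD 1. Of 12 marker lists, the sums of 4 also lay wholly higher in HFD than in NCD: hepatocyte (above), stellate cell (117.4 to 137.1 against 87.76 to 115.8 CPM), cholangiocyte (33.03 to 39.79 against 23.62 to 32.12, most of it Spp1) and intestinal epithelium (269.3 to 400.8 against 82.66 to 94.02, nearly all Fabp2, with Alpi at 0 in every library). Of the stellate cell markers, Colec11 lay higher in HFD (36.6 to 44.8 against 19.5 to 24.2 CPM), as did Lrat and Pdgfrb. Dcn, Reln and Des overlapped between NCD and HFD. The sums of B and plasma cell markers (2.028 to 3.624 against 3.795 to 6.079 CPM) and of adipocyte markers (0 to 0.0407 against 0.370 to 0.765) lay wholly lower. The adipocyte sums of every HFD library and of NCD 2 were under the floor, so that separation rests on very few reads. The part of these cells in the differences was not tested.

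**Figure D1:**
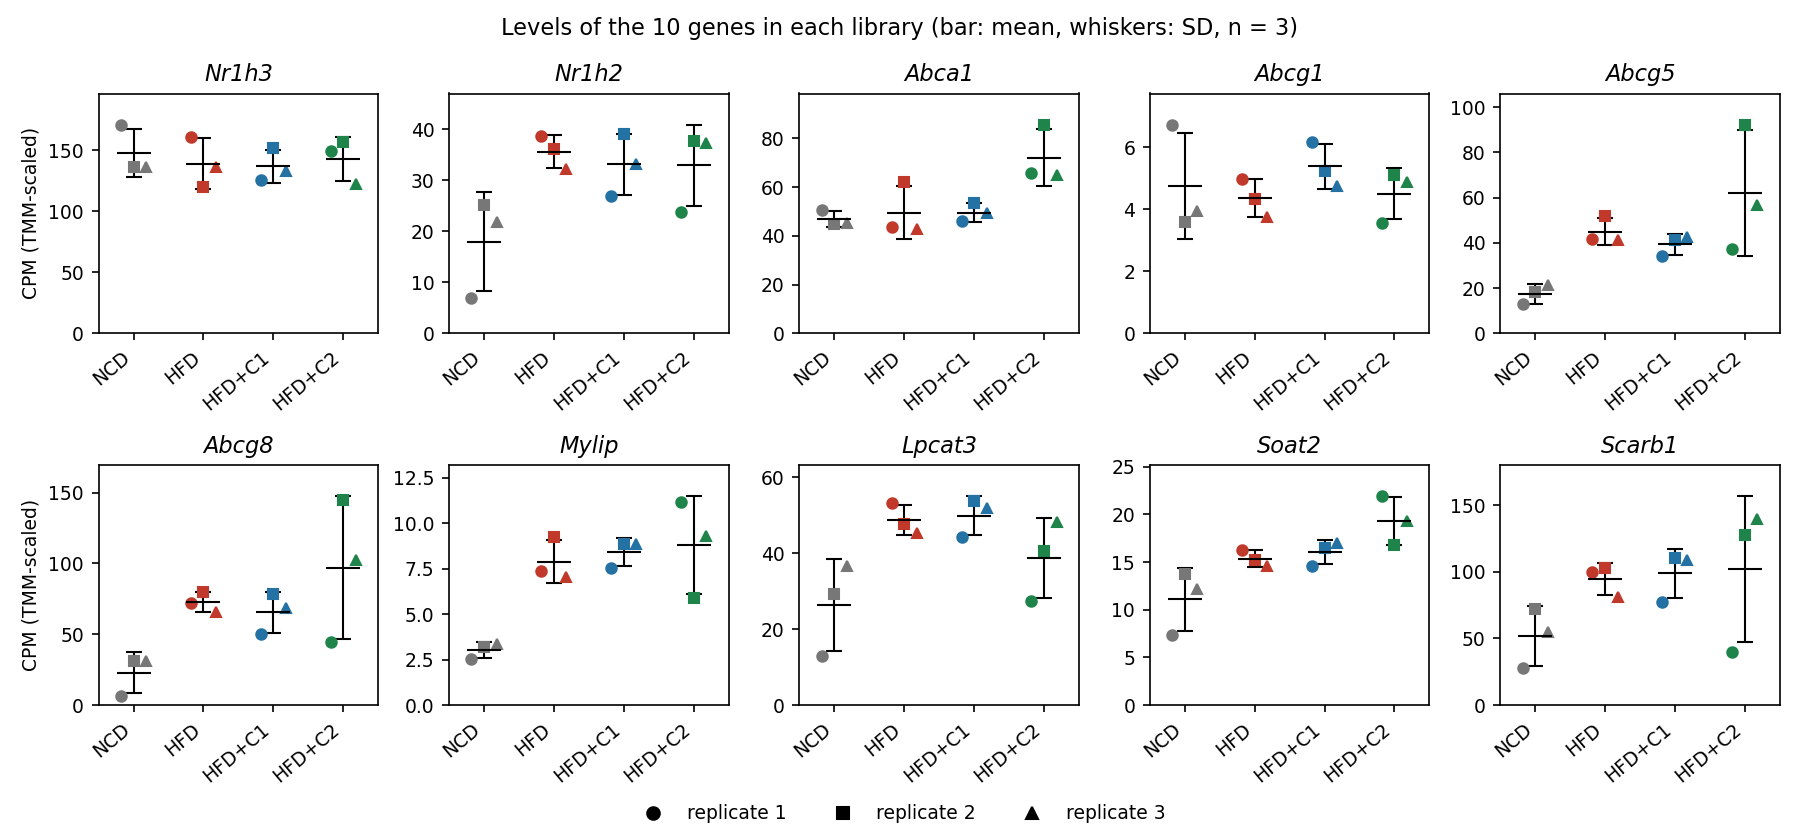
Level of each of the 10 genes (CPM, linear axis from 0) in the 12 libraries, by group; points are libraries with a symbol for each replicate number, bars are group means and whiskers SD over 3 libraries. Abcg5, Abcg8, Mylip and Soat2 in the 3 NCD libraries lie below all 9 libraries of HFD-fed mice. NCD 1 is the lowest of the 12 libraries for 7 of the 10 genes (all but Nr1h3, Abca1 and Abcg1), and Abca1 is highest in HFD+C2 2 at 85.5 CPM.

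The receptors themselves differed in level and in spread. Nr1h3, which encodes LXR alpha, the main form in hepatocytes, was at 171, 136 and 136 CPM in NCD 1 to 3 and 161, 120 and 136 in HFD. With C1 it was at 125, 151 and 133 CPM, and with C2 at 149, 156 and 122. The 4 groups overlapped throughout. The diet difference was -0.07 on the log2 scale with a 95% interval from -0.51 to 0.36 (edgeR adjusted p 0.823). Per length, as CPM divided by the annotated exon length in kilobases (RPKM), Nr1h3 had the highest level of the 10 genes, at 64.7 ± 9.67 RPKM in HFD (SD, n = 3).

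Nr1h2, which encodes the broadly expressed LXR beta, was at 6.89, 25.1 and 21.8 CPM in NCD, against 38.7, 36.0 and 32.2 in HFD. With C1 it was at 27.0, 39.0 and 33.3 CPM, and with C2 at 23.7, 37.7 and 37.3. NCD 1 was lowest by a wide margin, and the NCD and HFD libraries did not overlap. The log2 difference of 1.02 (SE 0.40) did not pass (edgeR adjusted p 0.138); without NCD 1 it was smaller, 0.62, and passed (edgeR adjusted p 0.0227). Within a library, counts of Nr1h3 were 3.28 to 4.65 times those of Nr1h2 in 8 of the 9 libraries of HFD-fed mice, 6.29 times in HFD+C2 1, 5.42 and 6.27 times in NCD 2 and NCD 3, and 24.8 times in NCD 1. These are ratios of counts, not of levels per length: per length Nr1h2 was at 17.8 ± 1.63 RPKM in HFD (SD, n = 3).

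Abcg5 and Abcg8 lie head to head on chromosome 17. Abcg5 (Entrez gene 27409, chr17:84658174-84683011, minus strand) and Abcg8 (Entrez gene 67470, chr17:84676302-84700333, plus strand) begin 110 bases apart at the start sites used here, in build GRCm38.p6. The 109 bases between those sites (chr17:84683012-84683120) are shown because both genes are read outward from them. They hold 0 annotated exon bases in GENCODE M21, and lie in an intron of a longer Abcg8 transcript that begins upstream. The sequence is RefSeq's, 5′ to 3′ on the plus strand. Capitals mark GATAA, the core of GATA factor sites, and TATAAA, the letters of a TATA box. All 3 matches read on the minus strand, the strand of Abcg5. TATAAA begins 84 bases before the Abcg5 start. Relative to the Abcg8 start it lies at -31, on the strand opposite to that gene.

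between Abcg5 and Abcg8: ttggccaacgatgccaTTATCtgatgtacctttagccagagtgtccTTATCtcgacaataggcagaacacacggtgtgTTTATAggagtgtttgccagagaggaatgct

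Windows of 300 bases (250 before and 50 after a start site) were at hand for 7 of the 10 genes, in 9 windows; Abcg1, Soat2 and Scarb1 had no entry. On both strands, the single nuclear receptor site AGGTCA, its direct repeat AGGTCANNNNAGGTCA, a degenerate form of that repeat (DR4) and the sterol response core CACCCCA matched in 0 of the 9. Among all 32851 windows these matched in 16.3%, 0.0152%, 0.231% and 7.62%. GATAA matched in the Abcg5 window and in the Abcg8 window at the start site above, and in none of the other windows of these genes, the upstream window of Abcg8 included, against 25.4% of all windows. The 2 windows that matched overlap, so they share matches. These are letter matches in short windows and say nothing of what binds there or farther away.

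Abcg5 was at 12.8, 18.3 and 21.4 CPM in NCD, and at 41.6, 52.0 and 41.3 in HFD. Each HFD library was above each NCD library. The log2 change was 1.37 (SE 0.23, edgeR adjusted p 0.0235). It was 1.16 without NCD 1 (edgeR adjusted p 0.000733), while with any one HFD library left out the change stayed between 1.26 and 1.44 but was not called (edgeR adjusted p 0.0952 to 0.151).

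Abcg8 was at 6.38, 31.2 and 31.1 CPM in NCD, and at 72.2, 79.8 and 65.5 in HFD. The groups did not overlap, and NCD 1 lay far below NCD 2 and NCD 3. The log2 difference of 1.69 was the largest of the 10 genes, but with an SE of 0.49 it did not pass (edgeR adjusted p 0.0715). Without NCD 1 it was 1.22 and passed (edgeR adjusted p 0.000272), and in a fit of all 12 libraries and with DESeq2 it passed as well (adjusted p 0.0310 and 0.00643). Whether the genes of the pair differed from each other in their response was not tested.

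Within libraries the subunits of the transporter kept close to one ratio. Counts of Abcg8 were 1.45 to 1.90 times those of Abcg5 in 10 of the 12 libraries, over all 4 groups. The exceptions were the libraries with the most unassigned reads: 0.497 in NCD 1 and 1.20 in HFD+C2 1. Per length, levels in HFD were near each other, at 18.6 ± 2.53 RPKM for Abcg5 and 19.3 ± 1.91 for Abcg8 (SD, n = 3). Over the 12 libraries the Pearson correlation of log2 CPM was 0.937, which placed Abcg8 in rank 10 of 10132 genes by likeness to Abcg5. By likeness to Abcg8, the nearest of the 10 genes was Nr1h2 and not Abcg5, at 0.960 and rank 31. Over 10 libraries, without NCD 1 and HFD+C2 1 (left out after the data were seen), Abcg5 and Abcg8 were each the gene nearest to the other, at 0.983. The points share libraries, depth and group, so these correlations describe the libraries. Exons of the pair overlap by 40 bases on opposite strands, 1.65% of Abcg5 and 1.07% of Abcg8, and strand use in counting is not given in the sources used here.

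**Figure D2:**
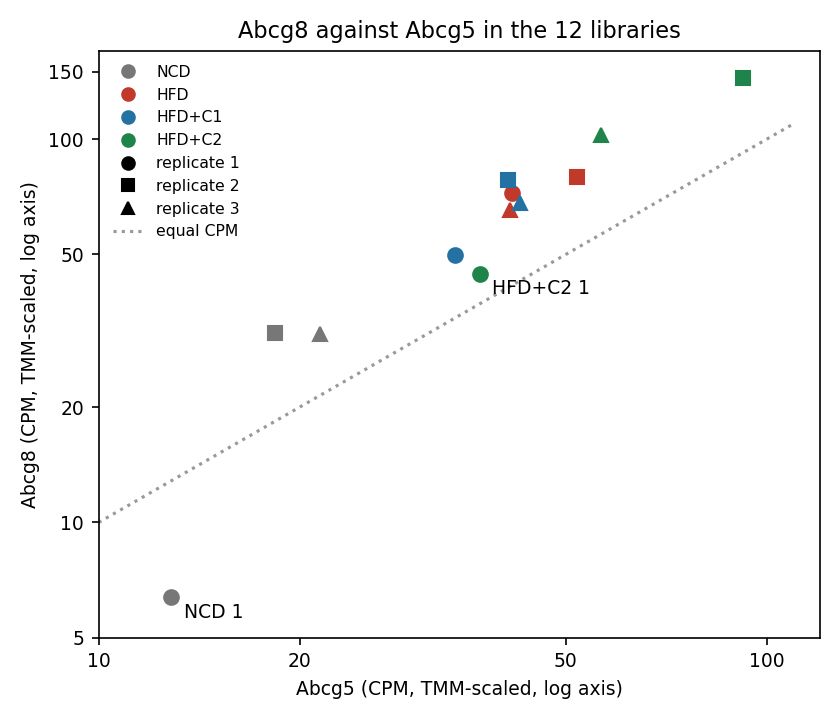
CPM of Abcg8 (y) against CPM of Abcg5 (x) in the 12 libraries, both on log axes; colours are groups, symbols replicate numbers, and the dotted line marks equal CPM. NCD 1 is the single library below the line (6.38 against 12.8 CPM), and HFD+C2 2 lies at the far end with 144.5 against 92.2 CPM.

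Mylip (Entrez gene 218203, chr13:45389742-45411940, plus strand, GRCm38.p6) was the second gene that rose with the diet. The 100 bases before its start site (chr13:45389642-45389741, plus strand, RefSeq) are shown because it was the other gene called in the diet comparison; they hold 0 annotated exon bases. Capitals mark CCAAT, here on the minus strand, and TATAAA, which begins 32 bases before the start. Over all windows CCAAT matched in 37.4% and TATAAA in 13.6%.

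Mylip upstream: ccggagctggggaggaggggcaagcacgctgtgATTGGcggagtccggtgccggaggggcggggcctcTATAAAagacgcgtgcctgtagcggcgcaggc

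Mylip was a gene of low level, at 2.55, 3.16 and 3.37 CPM in NCD and 7.35, 9.21 and 7.05 in HFD. In NCD these values rest on 30, 15 and 82 counts. The 3 NCD libraries lay close together, NCD 1 included, and below every HFD library. The log2 change was 1.39 (SE 0.25, edgeR adjusted p 0.0268). It passed without any one NCD library and failed without any one HFD library, where it was 1.27 to 1.47 (edgeR adjusted p 0.111 to 0.179).

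The HDL-directed exporters, Abca1 and Abcg1, overlapped between NCD and HFD. Abca1, which lipidates apolipoprotein A-I, was at 50.8, 44.9 and 45.3 CPM in NCD and 43.6, 62.0 and 42.8 in HFD. The groups overlapped, and the log2 difference was 0.09 with an interval from -0.36 to 0.53 (edgeR adjusted p 0.799), which turned to -0.10 without HFD 2. Abcg1, which passes cholesterol to formed HDL particles and is abundant in macrophages, was at 6.72, 3.58 and 3.94 CPM in NCD and 4.99, 4.32 and 3.75 in HFD. The log2 difference was -0.13 with an interval from -0.82 to 0.57 (edgeR adjusted p 0.810), and 0.19 without NCD 1. These intervals do not show that the diet left Abca1 and Abcg1 unaltered. Per length Abcg1 had the lowest level of the 10 genes, at 0.637 ± 0.0908 RPKM in HFD (SD, n = 3), against 4.82 ± 1.06 for Abca1.

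The remaining genes act on phospholipids, cholesteryl esters and HDL uptake, and all had higher means in HFD without passing the test. Lpcat3 was at 13.0, 29.1 and 36.6 CPM in NCD and 53.2, 47.8 and 45.4 in HFD. The groups did not overlap, and the log2 difference was 0.91 (SE 0.33, edgeR adjusted p 0.120). Lpcat3 shares 38 exon bases with Emg1 on the opposite strand, 1.67% of its length.

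Scarb1 was at 27.6, 72.3 and 54.9 CPM in NCD and 99.6, 103.0 and 81.0 in HFD, a log2 difference of 0.89 (SE 0.32, edgeR adjusted p 0.115). As for Nr1h2, Abcg5, Abcg8, Mylip, Lpcat3 and Soat2, NCD 1 was the lowest NCD library. Soat2 was at 7.31, 13.7 and 12.2 CPM in NCD and 16.3, 15.2 and 14.6 in HFD, a log2 difference of 0.50 (SE 0.25, edgeR adjusted p 0.213). For Soat2 the highest NCD library, at 13.7, was close to the lowest HFD library, at 14.6.

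The number of genes called moved with single libraries. Without NCD 1, 6 of 10 genes rose (Nr1h2, Abcg5, Abcg8, Mylip, Lpcat3 and Scarb1), where 13.7% of 13412 genes were called. The differences themselves were smaller in that fit: 0.55 for Lpcat3 (edgeR adjusted p 0.0364) and 0.58 for Scarb1 (edgeR adjusted p 0.0397). Soat2 was at 0.27 there, against 0.50 with NCD 1, and was not called in either fit. Without HFD 1, HFD 2 or HFD 3, 0 of the 10 genes were called, in fits where the calls over all genes fell from 836 to 23, 131 and 25.

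**Figure D3:**
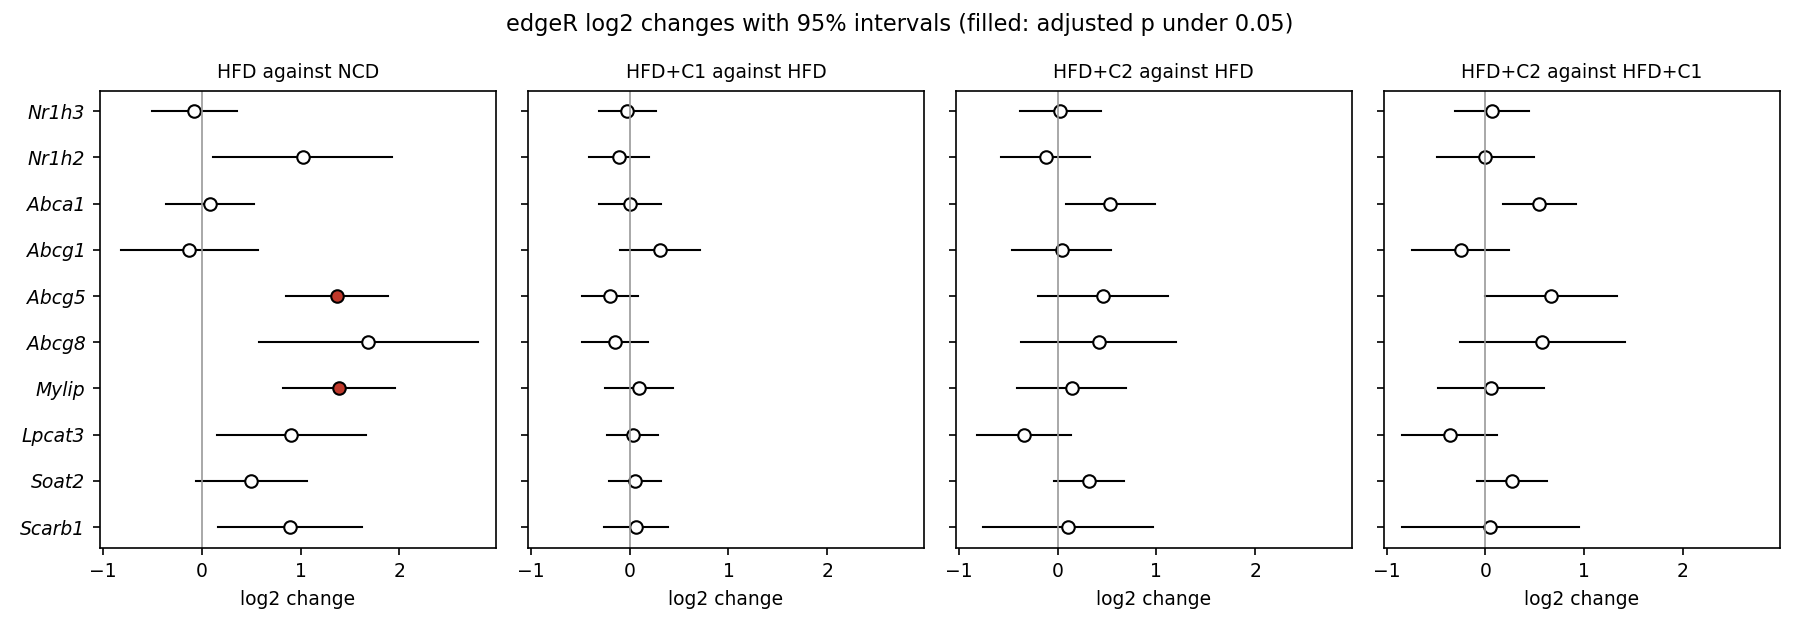
edgeR log2 change of each of the 10 genes (x) in 4 comparisons, with 95% intervals as lines; filled points have an adjusted p under 0.05, and 0 on the x axis means equal levels. Only Abcg5 and Mylip in HFD against NCD are filled; among the comparisons with compounds, the intervals of Abca1 in both HFD+C2 comparisons leave out 0, at 0.09 to 0.98 and 0.17 to 0.92, before adjustment over all genes.

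The second comparison asked whether C1 altered these genes in HFD-fed mice. None of the 10 was called by edgeR, 0 had an unadjusted p under 0.05, and DESeq2 called 0; over all 13358 genes tested edgeR called 7, or 0.0524%, which ranged from 2 without HFD 1 to 102 without HFD 2. The median log2 difference was 0.0154 over the 10 genes and 0.00625 over all genes; with single libraries left out, that of the 10 ran from -0.0412 without HFD+C1 2 to 0.0789 without HFD+C1 1. In 0 of 10 genes did the HFD+C1 and HFD libraries lie apart, against 12.3% of all genes. On library size alone Abcg1 did, and the share of all genes on that scaling was not computed.

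The intervals set the size of response that these libraries left room for. Abcg5 was at 34.1, 41.0 and 42.8 CPM with C1 and overlapped HFD; its log2 difference of -0.20 had an interval from -0.48 to 0.09. Abcg8, at 49.9, 78.1 and 68.3 CPM, differed by -0.15 with an interval from -0.48 to 0.18. Mylip, at 7.54, 8.88 and 8.83 CPM, differed by 0.09, from -0.25 to 0.44. Single libraries moved these small differences: that of Abcg5 was -0.08 without HFD 2, and that of Mylip 0.02 without HFD 3 and 0.22 without HFD 2.

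Abcg1 had the largest positive difference with C1, 0.31, with an interval from -0.10 to 0.72 (edgeR adjusted p 0.776); it was 0.19 without HFD+C1 1. Its levels were 6.17, 5.22 and 4.74 CPM, and the lowest of these lay within the HFD range. Abca1, at 45.9, 53.4 and 49.3 CPM, had nearly equal means in both groups: the difference was 0.000317, from -0.32 to 0.32, and its sign turned with the scaling. Summed CPM of 10 Kupffer cell markers was 322.2 to 426.8 with C1 and 208.6 to 274.1 in HFD, and that of 7 markers of recruited macrophages 58.08 to 69.28 and 35.19 to 50.33, most of it Lyz2 (44.9, 56.3 and 47.7 CPM with C1, 27.4, 38.3 and 23.2 in HFD). The other 6 markers of recruited macrophages overlapped between the groups. Of the markers of both lists, only Trem2 was at 0 in a library, NCD 1, and the part of these cells in the level of Abcg1 was not tested. Soat2 (14.6, 16.5 and 17.0 CPM), Lpcat3 (44.2, 53.7 and 51.8 CPM) and Scarb1 (77.7, 110.2 and 109.0 CPM) differed from HFD by 0.06, 0.03 and 0.06, with intervals between -0.26 and 0.39.

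C2 was set against HFD in the same way. Again 0 of the 10 genes were called by edgeR and 0 by DESeq2, with 1 gene (Abca1) at an unadjusted p under 0.05; over all 13503 genes edgeR called 3, or 0.0222%, with 0 calls without HFD 1 or HFD+C2 3 and 27 without HFD+C2 1. The log2 difference was above 0 in 8 of 10 genes, with a median of 0.125 against 0.0163 over all genes. With single libraries left out, 5 to 8 of 10 were above 0 and the median ran from -0.0205 without HFD+C2 2 to 0.23 without HFD 2. Groups lay apart in 2 of 10 genes, Abca1 and Soat2, against 13.6% of all genes. On library size alone this held for Soat2 and not for Abca1, and the share of all genes on that scaling was not computed. The comparisons with C1 and with C2 share their HFD libraries.

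Abca1 was at 65.7, 85.5 and 65.1 CPM with C2, where HFD had 43.6, 62.0 and 42.8. The log2 difference was 0.54, with an interval from 0.09 to 0.98, and did not pass after adjustment (edgeR adjusted p 0.695). With single libraries left out it ranged from 0.39 to 0.74. Within libraries, counts of Abca1 were 13.4 to 18.5 times those of Abcg1 with C2, 8.75 to 14.3 times in HFD, 7.43 to 10.4 times with C1 and 7.56 to 12.5 times in NCD. Kupffer cell markers summed to 259.6 to 517.3 CPM with C2, which overlapped HFD. Markers of recruited macrophages summed to 51.7 to 86.15 CPM with C2, wholly above the 35.19 to 50.33 of HFD, most of it Lyz2 (69.3, 43.2 and 40.6 CPM with C2). The part of those cells in the level of Abca1 was not tested.

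Abcg5 and Abcg8 spread widely among the C2 libraries. Abcg5 was at 37.2, 92.2 and 56.6 CPM and Abcg8 at 44.6, 144.5 and 102.2 CPM, so that HFD+C2 2 was high and HFD+C2 1 low for both. The log2 differences from HFD were 0.46 (interval -0.20 to 1.12) and 0.42 (-0.37 to 1.20). They rested on single libraries: without HFD+C2 2 they were 0.05 and 0.01, and without HFD+C2 1 they were 0.72 and 0.76 (edgeR adjusted p 0.234 and 0.120).

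Soat2 was at 21.9, 16.8 and 19.3 CPM with C2, just above the highest HFD library at 16.3, and its log2 difference was 0.32 (interval -0.03 to 0.67). Lpcat3, at 27.3, 40.6 and 48.1 CPM, was the gene with the largest negative difference, -0.34 (interval -0.82 to 0.13), with HFD+C2 1 lowest; it was -0.14 without HFD+C2 1 and -0.52 without HFD+C2 3. Scarb1 also ranged widely, from 39.6 CPM in HFD+C2 1 to 139.4 in HFD+C2 3, and a difference of 0.11 (interval -0.76 to 0.97). Mylip ran opposite to Abcg5 and Abcg8 across the same libraries, with 11.2 CPM in HFD+C2 1, 5.87 in HFD+C2 2 and 9.30 in HFD+C2 3. Its difference was 0.14 (interval -0.41 to 0.69).

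C1 and C2 were given at the same dose and for the same time, so they were compared directly, as 1 pair of compounds. Of the 10 genes 0 were called, as were 0 of 13229 genes (0%), while 608 genes and 1 of the 10 had an unadjusted p under 0.05 and DESeq2 called 3 genes, none of them among the 10. Abca1 was the gene in question: its 3 HFD+C2 libraries lay above the 3 HFD+C1 libraries, with a log2 difference of 0.55 (interval 0.17 to 0.92, edgeR adjusted p 0.841). Groups lay apart in this 1 of 10 genes, against 12% of all genes.

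The compounds were not told apart for any of the 10 genes, Abca1 included, and the intervals remained wide. They ran from -0.003 to 1.33 for Abcg5 around a difference of 0.66, from -0.26 to 1.41 for Abcg8 around 0.58, and from -0.84 to 0.11 for Lpcat3 around -0.36. Without HFD+C2 2 the differences of Abcg5 and Abcg8 were 0.25 and 0.17. For Abcg1 the difference was -0.25 (interval -0.74 to 0.24). Without HFD+C2 1 it was -0.12, that of Lpcat3 was -0.17 and that of Soat2 0.17, while those of Abcg5 and Abcg8 were both 0.92; without HFD+C2 3 that of Lpcat3 was -0.55. The narrowest of the 10 intervals, that of Soat2, ran from -0.08 to 0.63 around 0.27.

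Across the 4 groups, NCD had the lowest mean for 8 of 10 genes: all but Nr1h3 and Abcg1. Next to it in order stood HFD for Abca1, Mylip, Soat2 and Scarb1, HFD+C1 for Abcg5 and Abcg8, and HFD+C2 for Nr1h2 and Lpcat3. The order among the 3 groups of HFD-fed mice was within the spread of libraries for every gene but Abca1 and Soat2, as described above. By group means ± SD (n = 3), Abcg5 was at 17.5 ± 4.36 CPM on chow, 45.0 ± 6.12 on the high-fat diet alone, 39.3 ± 4.60 with C1 and 62.0 ± 27.9 with C2. Mylip was at 3.03 ± 0.42, 7.87 ± 1.18, 8.42 ± 0.76 and 8.78 ± 2.68 CPM in that order, so the means of the 3 groups of HFD-fed mice lay within 1 SD of HFD+C2 of each other.

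Likeness over the 12 libraries was described by Pearson correlation of log2 CPM among 10132 genes whose mean count was 50 or more. The genes nearest to the receptors were Plac9a for Nr1h3 (0.890) and Lims2 for Nr1h2 (0.991). For the exporters they were Rai14 for Abca1 (0.960), Cyb561 for Abcg1 (0.931), Polr3a for Abcg5 (0.969) and Cops7a for Abcg8 (0.980). For the other genes they were Pgm3 for Mylip (0.977), Xylb for Lpcat3 (0.987), Snx2 for Soat2 (0.976) and Jup for Scarb1 (0.981). When NCD 1 and HFD+C2 1 were left out, Abca1 alone of the 10 genes kept its nearest gene, Rai14, at 0.956. In those 10 libraries Soat2 and Scarb1, the esterifying enzyme and the HDL receptor, were in rank 3 and rank 6 of each other's lists, at 0.965. Over all 12 libraries this did not hold: the nearest of the 10 genes to Soat2 was Mylip, at 0.843 and rank 786, and the nearest to Scarb1 was Abcg8, at 0.895 and rank 320. The highest correlation of Nr1h3 with any of the other 9 genes was 0.297 in both sets of libraries.

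Genes that work around the 10 were read from 8 lists, of which 56 of 63 genes were tested for the diet. Among them 3 were called higher and 6 lower with the diet by edgeR, where 6.03% of all genes tested were called and 2.59% were called higher. Cyp46a1, among those called higher, passed the minimum count only through its HFD libraries. The lists were written with earlier results of these data known, so these shares are not an independent comparison. None of the listed genes was called with C1 or C2 or between the compounds, where 0.0524%, 0.0222% and 0% of all genes were. Of the receptor partners and coregulators, which include the retinoid X receptors, 0 of 9 were called. Of the 15 other LXR targets, which share Cd5l with the Kupffer cell markers, 0 rose and 2 fell. Cyp7a1, the rate-limiting enzyme of bile acid synthesis, was at 31.2 to 52.0 CPM in NCD and 4.22 to 7.58 in HFD, a log2 change of -2.68 (SE 0.29, edgeR adjusted p 0.00478). Mlxipl, a carbohydrate-sensing transcription factor, changed by -0.75 (SE 0.18, edgeR adjusted p 0.0460). With C1 and C2, Cyp7a1 was at 14.9 ± 3.50 and 18.6 ± 11.0 CPM (SD, n = 3), differences from HFD of 1.27 and 1.60 that did not pass (edgeR adjusted p 0.0925 and 0.695).

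Among enzymes that form or clear oxysterols, the ligands of the receptors, 1 of 5 was called higher and 2 were called lower. Cyp46a1, which makes 24-hydroxycholesterol, had a log2 change of 2.08 (SE 0.42, edgeR adjusted p 0.0366) at a low level, from 0.614 to 2.61 CPM. Its NCD values rest on 6, 3 and 17 counts, so NCD 2 was at the floor; the NCD mean of 8.67 counts was under the minimum of 10, which the gene passed through HFD (92, 58 and 67 counts). Both the call and the size of this change are therefore uncertain. Cyp7b1 and Cyp39a1, which hydroxylate oxysterols on the way to bile acids, changed by -1.77 (SE 0.30, edgeR adjusted p 0.0238) and -0.98 (SE 0.22, edgeR adjusted p 0.0442). Of 4 genes of sterol uptake, the fatty acid translocase Cd36 rose by 2.06 (SE 0.21, edgeR adjusted p 0.00431). The other 3 genes of that list were not called.

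In the remaining lists, Abcb4, the canalicular phospholipid transporter whose product lets ABCG5 and ABCG8 secrete sterol, rose by 1.76 (SE 0.35, edgeR adjusted p 0.0360). It was 1 of 5 canalicular transporters. The sterol carrier Stard4 changed by -1.16 (SE 0.23, edgeR adjusted p 0.0354) and the HDL apolipoprotein Apom by -0.77 (SE 0.18, edgeR adjusted p 0.0477), 1 of 8 and 1 of 7 in their lists, and 0 of 3 other lysophospholipid acyltransferases were called. Of these 9 calls, 9, 7 and 3 were also made without NCD 1, NCD 2 or NCD 3, and 2, 3 and 1 without HFD 1, HFD 2 or HFD 3. Cd36 was called in all 6 of those fits. With no filter on low counts, Mlxipl and Apom were not called (edgeR adjusted p 0.115 and 0.107).

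**Figure D4:**
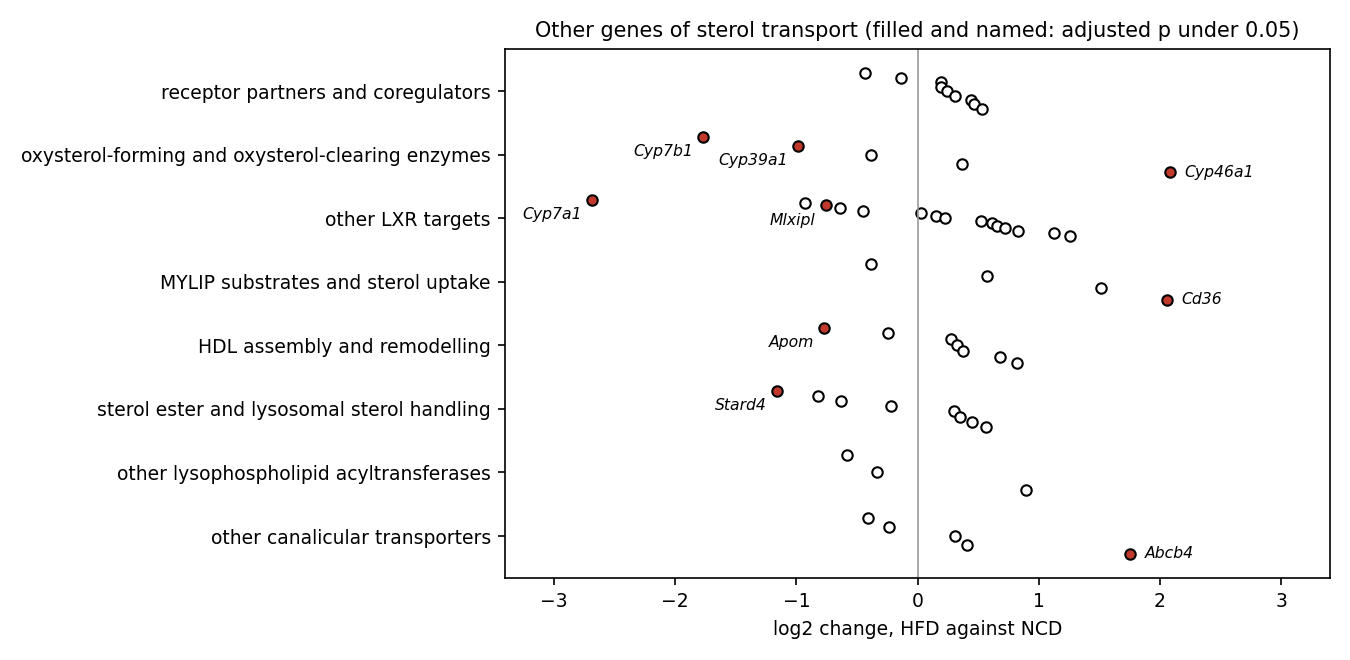
log2 change of HFD against NCD (x) for the tested genes of 8 lists of sterol handling (rows); each point is a gene, and filled, named points have an edgeR adjusted p under 0.05. Cyp7a1 lies farthest to the left at -2.68, and Cyp46a1, Cd36 and Abcb4 lie to the right at 2.08, 2.06 and 1.76.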

How the data were processed

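Liver RNA was sequenced in 12 libraries. The authors deposited 3 tables of read counts per gene, one for each comparison they made. Although the tables are called normalized, the deposited counts are whole numbers with unequal totals, and the HFD columns are identical in all 3 (0 values differ), so they were used as raw counts. Per the submitters' processing notes, Trimmomatic 0.39, STAR 2.7, DESeq2 and build mm10 were used, with their roles not stated. Annotation, strand use and filters are not given in the sources used here. The 4 rows that name no gene (27.32% to 58.15% of a library's reads) were kept out, and 0 value columns were left unmapped.

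Each comparison was fitted on its own 6 libraries, over genes whose mean count there was 10 or more, with edgeR 4.0.16 (R 4.3.3): TMM scaling, quasi-likelihood test, no covariates, Benjamini-Hochberg adjustment over all genes tested, and a call at an adjusted p under 0.05. An exact permutation test of 3 against 3 libraries cannot reach that threshold and was not used. Standard errors were derived from the log2 change and its F statistic, and intervals are 95%. Where a fit left out a library, the remaining libraries of that group set its mean. RPKM used GENCODE M21 basic exon lengths, and promoter windows and gene positions came from RefSeq tables of GRCm38.p6. No 2 replicates were alike enough to be one library. The labels do not say more of the replicates than that they are biological, so p-values measure the spread between these libraries. Floors of 3 counts cover counting error only. The test was tested on simulated data.

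The 10 genes, the gene lists and the markers were chosen with earlier results of these data known. Named in the text were the 10 genes, the listed genes that were called, and for each of the 10 the gene with the highest correlation of log2 CPM (prior count 2). The values of Cyp7a1 under the compounds were added after they were seen. A few listed genes are not reported here and were left out of the counts of their list. Alternatives were DESeq2 1.42.0, median-ratio scaling, no filter, a minimum mean count of 50, a block for the replicate number, all 12 libraries in one fit, and each library left out in turn.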

Additional observations from a re-analysis of the deposited data

How the results depend on the processing

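For the diet, 836 genes were called as reported, 2298 with DESeq2, 4493 with no filter on low counts, 524 at a mean of at least 50 counts, 483 with the replicate block, 2418 with all 12 libraries in one fit, and 23 to 1838 with single libraries left out. Calls among the 10 were 6 with no filter and 0 to 6 with libraries left out. With C1 there were 7 calls as reported, 64 with DESeq2, 206 with no filter, 36 with the replicate block, 0 with all 12 libraries and 2 to 102 with libraries left out. With C2 there were 3, then 35, 152 with no filter, 0 with all 12 libraries, and 0 to 27 with libraries left out. Between the compounds there were 0, then 3 with DESeq2, 162 with no filter and 0 to 1 with libraries left out. None of the 10 was called with C1, with C2 or between them under any alternative run. The cause of these shifts was not tested; with a library left out, fewer samples enter the fit.

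Same-numbered libraries deviated together with correlations from -0.138 to 0.293 for the diet and -0.223 to 0.167 elsewhere. Libraries of different number were not compared, so these values cannot decide whether the replicate numbers pair the samples. With the number as a block, 2, 0, 0 and 0 of the 10 were called, as without it. Of the 9 other sterol genes called with the diet, 5 missed the threshold under the block: Cyp46a1 (edgeR adjusted p 0.0635), Cyp39a1 (0.0610), Mlxipl (0.0764), Apom (0.0754) and Stard4 (0.0506).

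Signs turned only for differences that were not called. For the diet, Nr1h3 was at 0.12 and Abcg1 at 0.079 with no filter; with libraries left out they ran from -0.18 to 0.034 and from -0.28 to 0.19, and Abca1 from -0.096 to 0.19. With C1, Abca1 was at -0.0040 with DESeq2, -0.0041 with median-ratio scaling, -0.0038 with no filter and -0.0055 at a mean of at least 50 counts. With C1 and libraries left out, Nr1h3 ran from -0.13 to 0.093, Nr1h2 from -0.25 to 0.017, Abca1 from -0.094 to 0.19, Abcg8 from -0.30 to 0.0099, Lpcat3 from -0.026 to 0.11 and Scarb1 from -0.035 to 0.21. With C2, Scarb1 was at -0.069 with the replicate block; with libraries left out, Nr1h3 ran from -0.061 to 0.15, Nr1h2 from -0.23 to 0.068, Abcg1 from -0.059 to 0.18, Mylip from -0.061 to 0.36 and Scarb1 from -0.18 to 0.49. Between the compounds, Nr1h2 was at 0.0086 at a mean of at least 50 counts and Scarb1 at -0.12 with the replicate block; with libraries left out, Nr1h3 ran from -0.011 to 0.17, Nr1h2 from -0.13 to 0.18, Mylip from -0.15 to 0.28 and Scarb1 from -0.24 to 0.43.

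Among the 10 genes, depth limits Mylip and Abcg1 most, which had 15 and 17 counts in the shallowest library, NCD 2.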
